A study of Mus musculus with 12 samples.

Results

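The 8 genes described here are the C/EBP transcription factors Cebpa, Cebpb, Cebpd, Cebpe and Cebpg and the Tribbles pseudokinases Trib1, Trib2 and Trib3, taken by name from 41214 genes in the count files. RNA was sequenced from leukaemic cells of C57/BL6 NUP98-HOXD13 mice, in 4 libraries. These mice carry a transgene fusing a nuclear pore gene to a homeobox gene and develop myelodysplasia and acute myeloid leukaemia. There were 2 libraries of the Gfi1 KD/KD genotype (labelled homo, called KD here) and 2 of the Gfi1 KI/wt genotype (labelled het, called KI here), so that the fusion gene is common to both and a wild-type mouse is not in the comparison. In mouse lines with these names the altered Gfi1 allele holds the human GFI1 reading frame, expressed at a reduced level in KD, so mouse Gfi1 counts do not measure the whole Gfi1 dose. The labels give neither the organ from which the cells came nor the age of the mice, and they do not say whether each library came from a separate mouse or from pooled cells.

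C/EBP factors are basic leucine zipper proteins that bind DNA as dimers with each other. C/EBP alpha opens the path from multipotent progenitor to granulocyte and monocyte, C/EBP epsilon is needed for the secondary granules of neutrophils, and C/EBP beta takes over when granulocytes are made under stress and also serves monocytes. Trib1 and Trib2 bind C/EBP alpha together with the ubiquitin ligase COP1 and lead to its degradation, and either one causes acute myeloid leukaemia in mice when overexpressed. Trib3 is a stress-induced relative that is not known to cause such leukaemia. Gfi1, the gene altered in these mice, encodes a zinc finger protein that represses transcription and acts within the same granulocytic path.

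RefSeq (GRCm38.p6) gave an upstream sequence for 5 of the 8 members. Of these, 3 are shown because they represent the different outcomes below: Cebpb lay higher in KD, Trib3 lower, and Cebpa overlapped between the genotypes. Each run holds the 250 bases before the annotated start on the gene's own strand, at chr2:167688665-167688914 (plus strand) for Cebpb, chr2:152344061-152344310 (minus strand) for Trib3 and chr7:35119043-35119292 (plus strand) for Cebpa. Capitals mark matches, on either strand, to GCAAT (a core shared by many C/EBP sites), TGACG (the core of cyclic AMP response elements) or TATAAA (the TATA box).
Cebpb: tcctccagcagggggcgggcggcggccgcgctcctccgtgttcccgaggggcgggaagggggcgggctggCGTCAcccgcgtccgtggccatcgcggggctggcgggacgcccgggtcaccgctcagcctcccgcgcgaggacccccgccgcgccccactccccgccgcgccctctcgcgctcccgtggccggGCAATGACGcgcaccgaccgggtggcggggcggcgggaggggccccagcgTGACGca
Trib3: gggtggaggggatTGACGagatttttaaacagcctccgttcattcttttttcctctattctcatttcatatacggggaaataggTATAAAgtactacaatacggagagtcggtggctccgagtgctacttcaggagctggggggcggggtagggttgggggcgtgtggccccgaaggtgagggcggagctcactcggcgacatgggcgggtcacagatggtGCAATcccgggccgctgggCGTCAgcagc
Cebpa: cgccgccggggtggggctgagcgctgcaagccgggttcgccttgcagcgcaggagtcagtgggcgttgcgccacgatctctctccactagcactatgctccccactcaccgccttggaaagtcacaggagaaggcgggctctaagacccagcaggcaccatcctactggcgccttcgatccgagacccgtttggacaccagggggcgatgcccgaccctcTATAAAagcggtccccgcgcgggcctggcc

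In the Cebpb window, GCAAT lay 57 to 53 bases before the start and shared 1 base with the middle of 3 TGACG matches. The Trib3 window held GCAAT 29 to 25 bases before the start, 2 TGACG matches and 1 TATAAA, 166 to 161 bases before it. That of Cebpa held TATAAA 30 to 25 bases before the start and neither of the other cores. Among 32851 RefSeq windows of the same length, 23.1% held GCAAT, 17.8% TGACG and 12.4% TATAAA, so these short matches are common, and these 3 cores were chosen after the sequences had been seen. Further searches on both strands were for the C/EBP site TTGCNNAA (9.56% of all windows), the ATF4 and C/EBP composite site TGATGNAA (3.45%) and the GFI1 core AAATCA (12.4%). They found no match in the windows of Cebpa, Cebpb, Cebpg, Trib2 or Trib3. Windows for Cebpd, Cebpe and Trib1 were not used here. The G and C content was 81.6% for Cebpb, 57.2% for Trib3 and 66.4% for Cebpa, against a median of 52.4% over all windows.

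Counts over genes came to 11934542 and 10263454 in KD replicates 1 and 2, and to 4581593 and 10869534 in KI replicates 1 and 2. A set of 3 large predicted loci held 19.4% and 21.2% of the gene counts in the KD libraries and 39.0% and 44.4% in the KI libraries. Genes for receptors of smell, pheromones and taste, taken as silent in blood, averaged 0.0867 and 0.0849 CPM per gene in the KD libraries, and 0.579 and 0.140 CPM in the KI libraries, so that KI replicate 1 is both the shallowest library and the one with the highest level of silent genes. CPM is the count divided by the effective library size, scaled by TMM, a factor that corrects for unequal library composition. Of 10 markers of myeloid leukaemic cells, among them Ptprc, Mpo, Elane and Spi1, all were detected and tested. They summed to 4301 and 4171 CPM in KD and to 3517 and 3546 CPM in KI. Their fitted differences, KD minus KI, were positive for 6 and negative for 4. Cd34 lay higher in KD (68.4 and 120 CPM, against 32.5 and 6.41 CPM in KI). Kit lay lower in KD (34.1 and 27.0 CPM, against 55.2 and 52.7 CPM in KI). Mouse Gfi1 followed the labels, at 7.22 and 1.12 CPM in KD against 36.2 and 89.0 CPM in KI. In the replicates numbered 2 of both genotypes Xist was high (9795 counts in KD, 6613 in KI), and in those numbered 1 it was low (6 and 56). The Y chromosome genes lay the other way. In the replicates numbered 1 of KD and KI, Eif2s3y had 819 and 361 counts, Kdm5d 678 and 208, Uty 422 and 199, and Ddx3y 18 and 334. In those numbered 2 these genes had 0 to 6 counts. Each genotype thus holds 1 library of male and 1 of female pattern, so its libraries did not come from the same mouse. Replicate number and sex cannot be told apart.

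The comparison of KD with KI asked whether leukaemia with little Gfi1 differs in this group of granulocyte regulators. Among the C/EBP genes, the KD libraries lay below the KI libraries for Cebpe and above them for Cebpb, whereas Cebpa, Cebpd and Cebpg overlapped. Among the Tribbles genes, Trib1 and Trib3 lay lower in KD without overlap, and Trib2 overlapped. All 8 members passed the low-count filter. None of them passed edgeR's quasi-likelihood test with Benjamini-Hochberg adjustment over 13822 genes (0 of 8 called, against 0% of all genes tested). At an unadjusted p under 0.05, 4 of the 8 members stood out, 1 of them higher and 3 lower in KD, where 9.63% of all genes tested did so (1.29% higher and 8.34% lower). The genotypes did not overlap for the same number, 1 higher and 3 lower, where 38.0% of all genes did not overlap (14.5% higher and 23.5% lower in KD). The fold change was positive for 2 members and negative for 6, against 44.5% and 55.5% of all genes. DESeq2 called 0 of the 8 members, against 0.0384% of its genes called higher and 1.05% called lower, and limma-voom called 0 as well. With 2 libraries a genotype, every p-value reflects the variation among these 4 libraries alone, which may be in part technical.

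**Figure D1:**
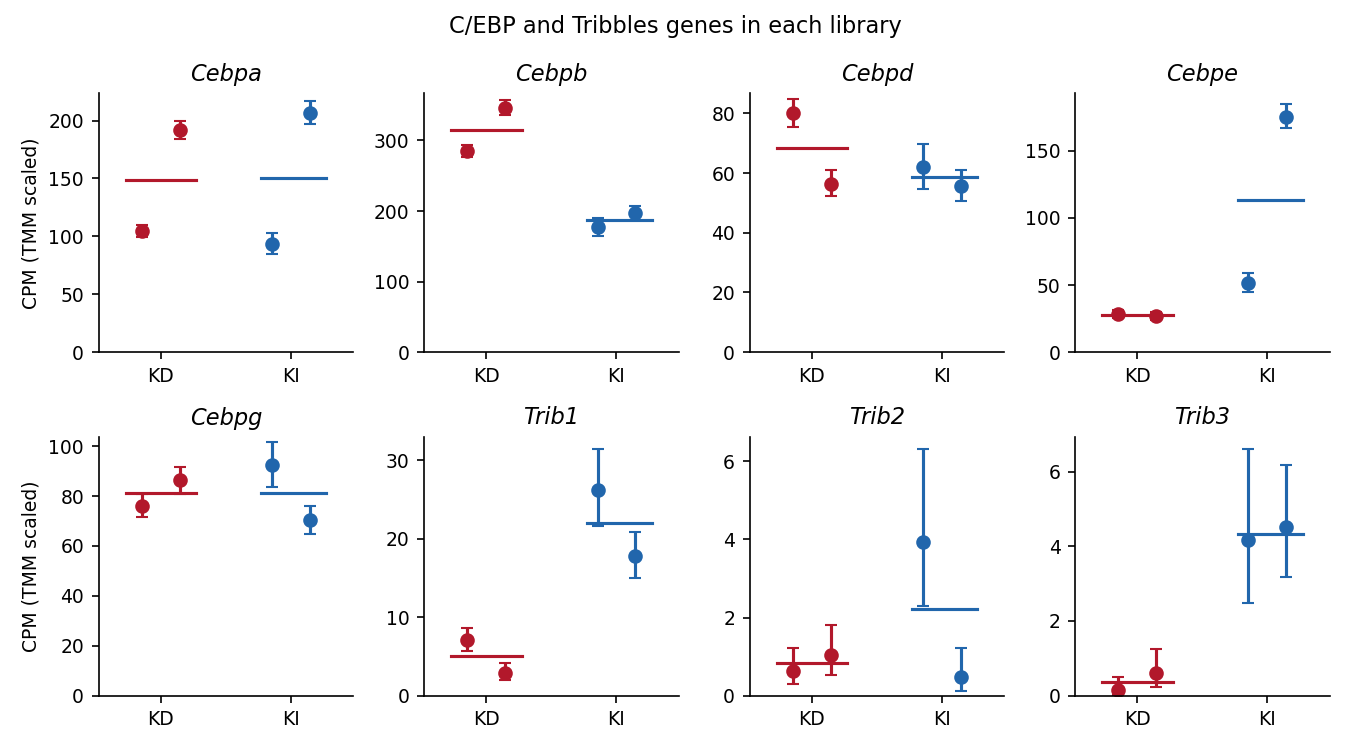
Level of each of the 8 genes in CPM (TMM scaled, linear axis from 0) in the 2 KD libraries (red, left) and the 2 KI libraries (blue, right). Points are libraries in order of replicate number, horizontal lines are genotype means, and bars are exact 95% Poisson intervals of the counts, which cover counting error only. The KD points of Cebpe, Trib1 and Trib3 lie below both KI points, and those of Cebpb above them.

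Cebpe (ENSMUSG00000052435, chr14:54710363-54712174) had 28.5 and 27.0 CPM in KD, against 51.7 and 175.6 CPM in KI. The KD libraries were close to each other and both were below KI replicate 1, the lower of the KI libraries. The counts behind these levels were 403 and 313 in KD and 223 and 1480 in KI. On the log2 scale the KD minus KI difference was -2.04 ± 0.60 (SE, n = 2 each), a KI level 4.10 times that of KD (edgeR adjusted p = 0.518). The DESeq2 value was -1.93 (adjusted p = 0.0689). Its size rested largely on KI replicate 2. Without that library the value was -0.80 (adjusted p = 0.0943), and without KI replicate 1 it was -2.52 (adjusted p = 0.0123, the 1 setting in which edgeR called the gene, with 0.939% of all genes called lower). Over all 13 alternative settings the value stayed negative, with adjusted p between 0.0123 and 1. In cells measured in bulk, fewer cells of a type and less RNA per cell cannot be told apart. Late granulocyte markers lay the same way as Cebpe, with 10 of 10 negative. Against 23.5% of all genes, 9 of these markers lay lower in KD without overlap. Their summed level was 3684 and 1836 CPM in KD against 16315 and 17408 CPM in KI, with no marker at 0, and their part in the Cebpe difference was not tested. Of 8 markers of eosinophils, which also depend on C/EBP epsilon, 4 were tested, 3 of them positive, while Ear2 was negative and overlapped (log2 -0.59 ± 0.78). All 8 markers, those not tested included, summed to 146 and 34.8 CPM in KD and to 32.0 and 15.3 CPM in KI. Without Prg2, which had 102 and 14.2 CPM in KD and 4.41 and 1.78 CPM in KI, the sums were 43.9 and 20.6 CPM in KD and 27.6 and 13.5 CPM in KI, with overlap.

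Cebpb (ENSMUSG00000056501, chr2:167688915-167690432) was the member that lay higher in KD. Its level was 284.9 and 346.0 CPM in KD and 177.2 and 196.9 CPM in KI, with a gap between the genotypes wider than the spread within either. The log2 fold change was 0.75 ± 0.29 (SE, n = 2 each), which is 1.69 times the KI level (adjusted p = 0.518 in edgeR and 0.252 in DESeq2). It was positive in all 13 alternative settings, from 0.67 to 1.18, with adjusted p between 0.108 and 1. Monocyte and macrophage markers lay the same way, with 9 of 10 positive. Against 14.5% of all genes, 6 of these markers were higher in both KD libraries. They summed to 3698 and 3629 CPM in KD and to 2622 and 1392 CPM in KI, none was at 0, and their part in the Cebpb difference was not tested.

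Cebpa (ENSMUSG00000034957, chr7:35119293-35121928), the factor on which the Tribbles proteins act, did not separate the genotypes. It had 104.7 and 191.8 CPM in KD and 93.7 and 206.8 CPM in KI. In each genotype the replicate numbered 2 held about the same high level and the replicate numbered 1 the same low level, so the spread within a genotype exceeded the difference between their means. The log2 fold change was -0.02 ± 0.50 (SE), with a 95% interval from -1.26 to 1.22 and adjusted p = 1.000 in edgeR, which leaves differences of more than 2-fold in either direction within the interval. This interval is from the fit of genotype alone. With the replicate number as a block, the value was 0.024 ± 0.23 (SE). The sign of the Cebpa fold change varied with the setting. The RNA level says nothing of the C/EBP alpha protein, which is where COP1 and the Tribbles proteins act.

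Cebpd (ENSMUSG00000071637, chr16:15887286-15889545), an acute-phase member induced by cytokines, had 80.2 and 56.5 CPM in KD against 61.9 and 55.6 CPM in KI. KD replicate 1 stood highest and the other 3 libraries lay together. The log2 fold change was 0.22 ± 0.30 (SE), with a 95% interval from -0.54 to 0.98 and adjusted p = 0.941 in edgeR. It was 0.050 without KD replicate 1, 0.52 without KD replicate 2 and 0.64 with scaling by library size alone. The RefSeq span of Cebpd shares 322 bp with that of Spidr, where reads may have been left uncounted. Cebpg (ENSMUSG00000056216, chr7:35046422-35056566), which has no activation domain and acts by pairing with other zipper proteins, had 76.1 and 86.3 CPM in KD and 92.3 and 70.2 CPM in KI. Both KD values lay between the KI values. Its log2 fold change was -0.00031 ± 0.29 (SE), with a 95% interval from -0.71 to 0.71 and adjusted p = 1.000 in edgeR, and its sign too changed with the setting.

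**Figure D2:**
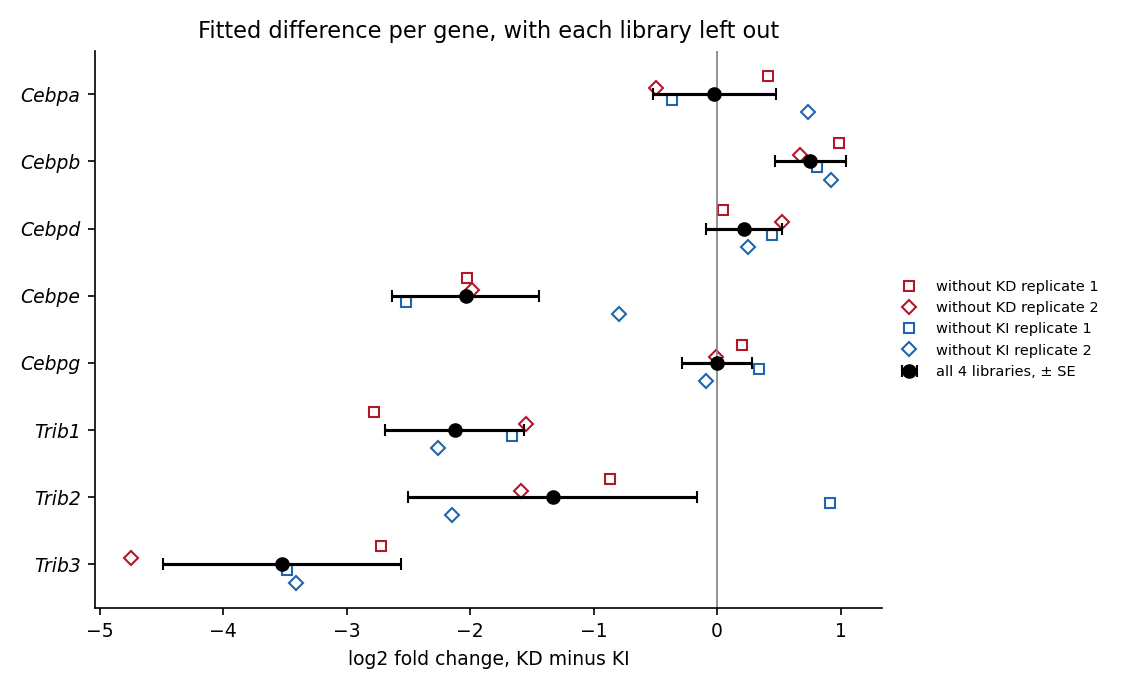
Fitted log2 fold change, KD minus KI, for each gene with all 4 libraries (black, ± SE) and with 1 library left out (open red symbols: a KD library; open blue symbols: a KI library). Cebpe lies at -2.04 with all libraries and at -0.80 without KI replicate 2, and Trib2 changes sign without KI replicate 1.

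The levels can be set side by side per length only for Cebpa, Cebpb and Cebpd, which have no introns, so that the RefSeq span stands for the transcript. Per kilobase, Cebpb had 188 and 228 CPM in KD, against 117 and 130 CPM in KI. On the same scale Cebpa had 39.7 and 72.8 CPM in KD and 35.5 and 78.4 CPM in KI, and Cebpd had 35.5 and 25 CPM in KD and 27.4 and 24.6 CPM in KI. Cebpb therefore stood highest of the 3 in every library, at 4.74 and 3.13 times the Cebpa level in KD and 3.30 and 1.66 times in KI. Cebpa stood 1.12 and 2.91 times above Cebpd in KD and 1.30 and 3.19 times in KI, so these neighbours in the order were nearly level in the replicates numbered 1. The gene models used for counting may differ from the RefSeq spans, which would shift all libraries alike.

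Within a library the make-up of the C/EBP counts does not depend on scaling between libraries. The counts of the 5 genes together came to 8116 and 8191 in KD and to 2056 and 5944 in KI, and their summed level, 574 and 708 CPM in KD and 477 and 705 CPM in KI, overlapped between the genotypes. Cebpe made up 4.97% and 3.82% of them in KD (95% Wilson intervals 4.51% to 5.46% and 3.43% to 4.26%), against 10.8% and 24.9% in KI (9.57% to 12.3% and 23.8% to 26%). Cebpb made up 49.6% and 48.9% in KD (48.5% to 50.7% and 47.8% to 50.0%), against 37.2% and 27.9% in KI (35.1% to 39.3% and 26.8% to 29.1%). The KD libraries thus had nearly the same Cebpb share, and both KI libraries lay below it. These intervals cover counting error only. The shares of Cebpa (18.2% and 27.1% in KD, 19.6% and 29.3% in KI), Cebpd (14.0% and 7.98%, against 13% and 7.89% in KI) and Cebpg (13.2% and 12.2%, against 19.4% and 9.96% in KI) overlapped. Shares sum to a whole, so a lower Cebpe share raises the others.

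**Figure D3:**
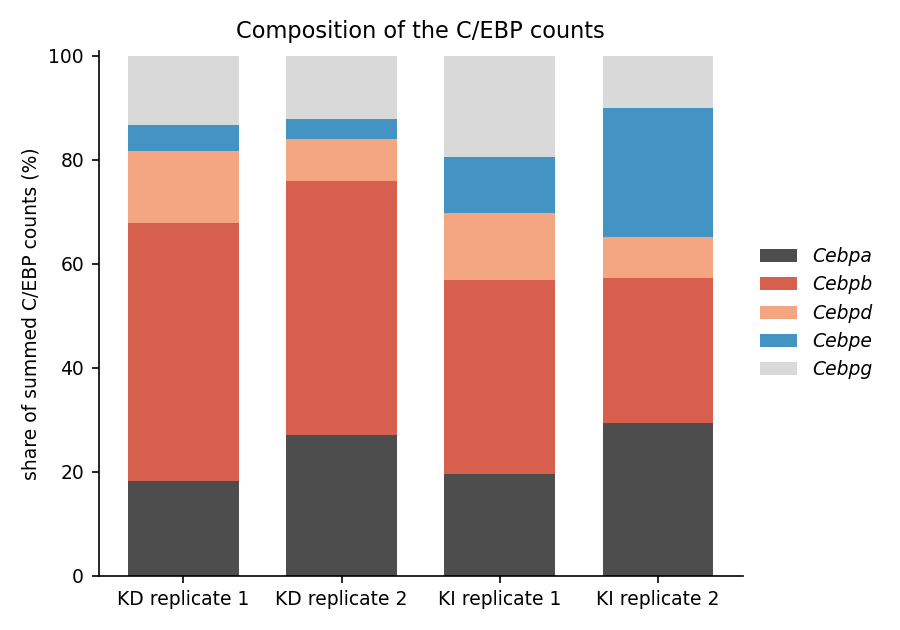
Share of each C/EBP gene in the summed counts of the 5 genes, in percent, for each library. The Cebpe band (blue) takes 4.97% and 3.82% in the KD bars and 10.8% and 24.9% in the KI bars, and the Cebpb band (red) is widest in the KD bars.

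Ratios to Cebpa were tested by an exact two-sided permutation test over the libraries, in which 2 against 2 can give no p below 0.333. The count ratio of Cebpe to Cebpa was 0.273 and 0.141 in KD and 0.553 and 0.849 in KI. On the log2 scale its mean was -2.35 ± 0.67 in KD and -0.55 ± 0.44 in KI (SD, n = 2 each), a difference of -1.80 with exact permutation p = 0.333, the smallest possible, and 0.500 adjusted over the 3 ratios. The difference ranged from -2.28 to -1.33 when each library was left out in turn, and was -1.49 without KI replicate 2. The count ratio of Cebpb to Cebpa was 2.72 and 1.80 in KD and 1.89 and 0.952 in KI, so that KD replicate 2 and KI replicate 1 overlapped. Its log2 difference was 0.72, with exact permutation p = 0.667, also 0.667 when adjusted. It was 0.23 without KI replicate 2 and 1.22 without KI replicate 1.

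The ratio of Trib1 and Trib2 together to Cebpa was 0.0740 and 0.0209 in KD and 0.323 and 0.0886 in KI. The libraries of the genotypes did not overlap, but KD replicate 1 and KI replicate 2 lay close. On the log2 scale the mean was -4.67 ± 1.29 in KD and -2.56 ± 1.32 in KI (SD, n = 2 each), a difference of -2.10 with exact permutation p = 0.333 and 0.500 adjusted over the 3 ratios. Left-out libraries moved it between -1.17 and -3.03. Trib1 supplied most of these counts in every library.

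**Figure D4:**
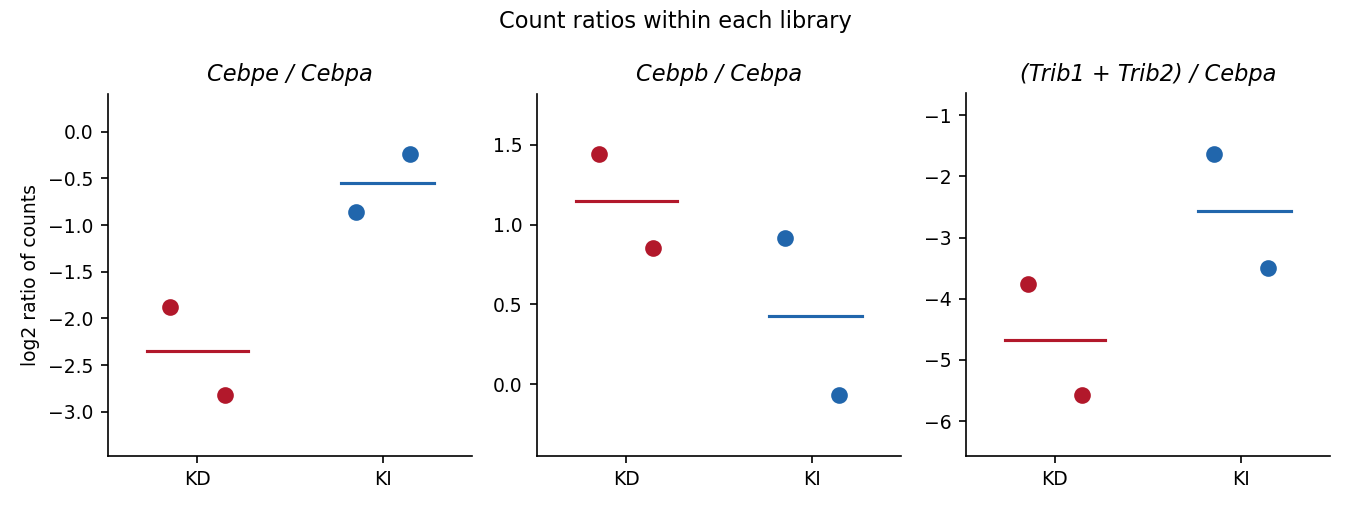
Log2 ratios of counts within each library (0.5 added to each count) for KD (red, left) and KI (blue, right), with genotype means as lines. For Cebpe over Cebpa and for the summed Trib1 and Trib2 over Cebpa both KD points lie below both KI points, and for Cebpb over Cebpa the ranges overlap.

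Trib1 (ENSMUSG00000032501, chr15:59648654-59657099) was the most abundant Tribbles gene by counts. It had 7.08 and 2.94 CPM in KD, against 26.2 and 17.8 CPM in KI, from 100 and 34 counts in KD and 113 and 150 in KI. Both KD libraries were lower than both KI libraries, and the gap was wider than the spread within either genotype. The log2 fold change was -2.12 ± 0.56 (SE, n = 2 each), a KI level 4.36 times that of KD, with adjusted p = 0.518 in edgeR and 0.104 in DESeq2. It was negative in all 13 alternative settings, from -2.78 to -1.54, with adjusted p between 0.0156 and 1. The gene was called by edgeR only without KI replicate 2 (-2.26, adjusted p = 0.0156), a setting in which edgeR called 23.0% of all genes lower. The silent receptor genes named above lay far below these levels, at 95th percentiles of 0.212 and 0.259 CPM in KD and 1.39 and 0.475 CPM in KI.

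Trib3 (ENSMUSG00000032715, chr2:152337425-152344060) was rare in all libraries. It had 0.142 and 0.605 CPM in KD and 4.17 and 4.51 CPM in KI, from 2 and 7 counts in KD and 18 and 38 counts in KI. In KI both values lay above the 95th percentiles of the silent receptor genes (1.39 and 0.475 CPM). In KD the gene lay below the 95th percentile of the receptor genes in replicate 1 and above it in replicate 2. The part of such background in the Trib3 difference was not tested. The log2 fold change was -3.53 ± 0.96 (SE, n = 2 each), with adjusted p = 0.518 in edgeR and 0.107 in DESeq2. It ranged from -4.75 to -2.72 over 12 alternative settings, and edgeR called the gene only in that setting without KI replicate 2 (-3.41, adjusted p = 0.0177). With 2 and 7 counts in KD the size of the difference is only loosely fixed.

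Trib2 (ENSMUSG00000020601, chr12:15791725-15816962) was near the limit of detection. It had 0.637 and 1.04 CPM in KD and 3.94 and 0.475 CPM in KI, from 9 and 12 counts in KD and 17 and 4 in KI. KI replicate 1 alone stood high, the library in which silent receptor genes were also highest, and KI replicate 2 was the lowest of all 4. The log2 fold change was -1.33 ± 1.17 (SE), with adjusted p = 0.842 in edgeR. It turned to 0.92 without KI replicate 1 and was -2.14 (adjusted p = 0.0464) without KI replicate 2, so that the direction rested on 1 library. The KI libraries differed beyond counting error, with exact 95% Poisson intervals of 2.30 to 6.31 CPM in replicate 1 and 0.129 to 1.22 CPM in replicate 2.

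Erythroid markers lay lower in KD, as Trib1 and Trib3 did, with 10 of 10 negative. Against 23.5% of all genes, all 10 of these markers were lower in both KD libraries. They summed to 62.2 and 3.46 CPM in KD and to 427 and 403.96 CPM in KI. Of 8 T cell markers all were negative, and 5 lay lower in KD without overlap, against 23.5% of all genes. Cd8a, Lck and Cd3d overlapped. The 8 markers summed to 10.8 and 15.6 CPM in KD and to 71.0 and 67.7 CPM in KI. In KI replicate 2 Cd3e alone held 37.3 CPM, whereas Lck had 1.90 CPM, below both KD libraries (2.76 and 3.71 CPM). No marker of either list was at 0 in all libraries. Other tested markers were mostly negative too, with 2 of 3 for megakaryocytes, 3 of 3 for B cells and 1 of 1 for NK cells. For stroma and endothelium it was 3 of 4, where 55.5% of all genes were negative. Itga2b and Pecam1 were positive, as were most monocyte and eosinophil markers given above. The silent receptor genes also averaged lower in KD, so this direction was not particular to erythroid and T cell markers. The part of these genes in the Trib1 and Trib3 differences was not tested.

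Neither the members nor the other genes of the Tribbles pathway passed edgeR's adjusted test, against 0% of all genes tested. The ubiquitin ligase COP1, which does the degrading, and its adaptors form a list of 7 genes, all tested, with 6 values above 0 and 1 below. Their median log2 fold change was 0.12, that of all genes -0.06. None had an unadjusted p under 0.05, and 1 of the 7 lay higher in both KD libraries, against 14.5% of all genes. Cop1 itself had 72.4 and 56.8 CPM in KD and 55.2 and 68.7 CPM in KI. The 3 members with the lowest p were Cul4b, a cullin scaffold (log2 fold change 0.61 ± 0.28), Det1 (-0.33 ± 0.43) and Cul4a (0.17 ± 0.28). Kinases that Tribbles proteins bind or modulate (MEK, ERK and AKT) had 6 positive and 2 negative values of 8, a median of 0.16 and none at an unadjusted p under 0.05. Mapk3, which encodes ERK1, led them at 60.8 and 41.0 CPM in KD against 30.6 and 31.6 CPM in KI, and Map2k2 and Map2k1, the MEK genes, had log2 fold changes of 0.31 ± 0.31 and 0.19 ± 0.27.

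Zipper relatives and partners of C/EBP proteins went both ways, with 6 positive and 10 negative of 16 tested, a median of -0.26 and none at an unadjusted p under 0.05. Nfil3, a zipper repressor, had 53.3 and 39.7 CPM in KD and 29.0 and 25.5 CPM in KI. Fos had 119.4 and 37.6 CPM in KD and 41.5 and 28.7 CPM in KI, with overlap. Ddit3, which encodes CHOP, the stress-induced partner of C/EBP beta and an inducer of Trib3, lay lower in both KD libraries, at 5.17 and 4.58 CPM against 8.58 and 9.85 CPM in KI (log2 -0.92 ± 0.48). Of 12 genes of the ATF4 and CHOP response, to which Trib3 belongs in other cells, 4 lay above 0 and 8 below, and the median was -0.35. At an unadjusted p under 0.05, 1 of the 12 was lower in KD, against 8.34% of all genes. It was Slc7a11, the cystine transporter, at 2.05 and 1.81 CPM in KD and 22.5 and 6.53 CPM in KI (log2 -2.89 ± 0.74). Its adjusted p was 0.518 in edgeR and 0.0414 in DESeq2. Asns, asparagine synthetase of the same response, lay the other way at 6.44 and 1.99 CPM in KD and 1.86 and 0.949 CPM in KI.

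Of 10 listed targets of C/EBP epsilon, 9 were tested (Bpi was not). All 9 were negative, with a median of -2.00. Against 23.5% of all genes, 6 of these targets lay lower in both KD libraries. Against 8.34% of all genes, 5 of them were lower at an unadjusted p under 0.05. The 3 with the lowest p were the granule genes Camp (107 and 76.1 CPM in KD, 1183 and 1806 in KI), Ngp (298 and 116 CPM in KD, 2127 and 3550 in KI) and Lcn2 (204 and 171 CPM in KD, 550 and 653 in KI). Chil3 and Mmp8, named after their values were seen, lay near 0, at log2 -0.33 ± 0.50 and -0.06 ± 0.35, so the list was not uniform. It shares Camp, Cd177, Lcn2, Ltf, Mmp8 and Ngp with the late granulocyte markers given above, and is not independent of them.

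The list of C/EBP alpha targets had 7 positive and 4 negative values of 11, with a median of 0.02. Apart from Gfi1 and Cebpe, which are themselves in the list, the lowest p was that of Klf5, a zinc finger gene, at 2.12 and 0.864 CPM in KD and 7.19 and 5.10 CPM in KI (log2 -2.02 ± 0.76). Prtn3, Elane and Ctsg, primary granule proteases, were named after their values were seen. Prtn3 had 375 and 856 CPM in KD and 229 and 374 CPM in KI (log2 1.03 ± 0.51). Its KD replicate 1 and KI replicate 2 were nearly level. Elane and Ctsg had log2 fold changes of 0.02 ± 0.48 and 0.02 ± 0.75. Both repeated the Cebpa pattern of a higher level in the replicates numbered 2, at 480.0 and 519 CPM in KD replicate 2 and 477 and 527 CPM in KI replicate 2, against 257 and 173 CPM in KD replicate 1 and 250 and 154 CPM in KI replicate 1. Among 10 cofactors of C/EBP alpha in myeloid fate, 8 were positive, with a median of 0.25. Against 14.5% of all genes, 5 of these cofactors lay higher in both KD libraries. Against 1.29% of all genes, 1 of them was higher at an unadjusted p under 0.05. They were led by Irf8, a factor of monocyte fate (394 and 556 CPM in KD, 237 and 284 in KI), Runx1 (131 and 144 CPM in KD, 121 and 76.8 in KI) and Spi1, which encodes PU.1 (177 and 159 CPM in KD, 129 and 130 in KI).

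Inputs to C/EBP beta and delta from interleukin 6 had 7 positive and 1 negative values of 8, with a median of 0.46. Il6st, the shared signalling chain of the interleukin 6 receptors, had 335 and 332 CPM in KD against 138 and 30.0 CPM in KI (log2 2.00 ± 0.71). It was the 1 gene of the 8 with an unadjusted p under 0.05, where 1.29% of all genes were higher at that threshold. The adjusted p of Il6st was 0.518 in edgeR and 0.0919 in DESeq2. Its KD libraries were nearly equal and its KI libraries far apart. Myd88, an adaptor of interleukin 1 and Toll-like receptors, had 81.7 and 69.0 CPM in KD and 48.5 and 49.0 CPM in KI, and Il6ra, whose groups overlap, had log2 0.82 ± 0.49. Over these 8 pathway lists edgeR called 0 genes after adjustment over all genes. DESeq2 called 5 of the C/EBP epsilon targets, all lower in KD (Camp, adjusted p = 1.9e-17, Ngp, 8.1e-08, Ltf, 0.00041, Cd177, 0.0015, and Lcn2, 0.0026), Gfi1 in the C/EBP alpha list (0.0012) and Slc7a11 in the ATF4 list. Of all its genes DESeq2 called 1.05% lower in KD.

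**Figure D5:**
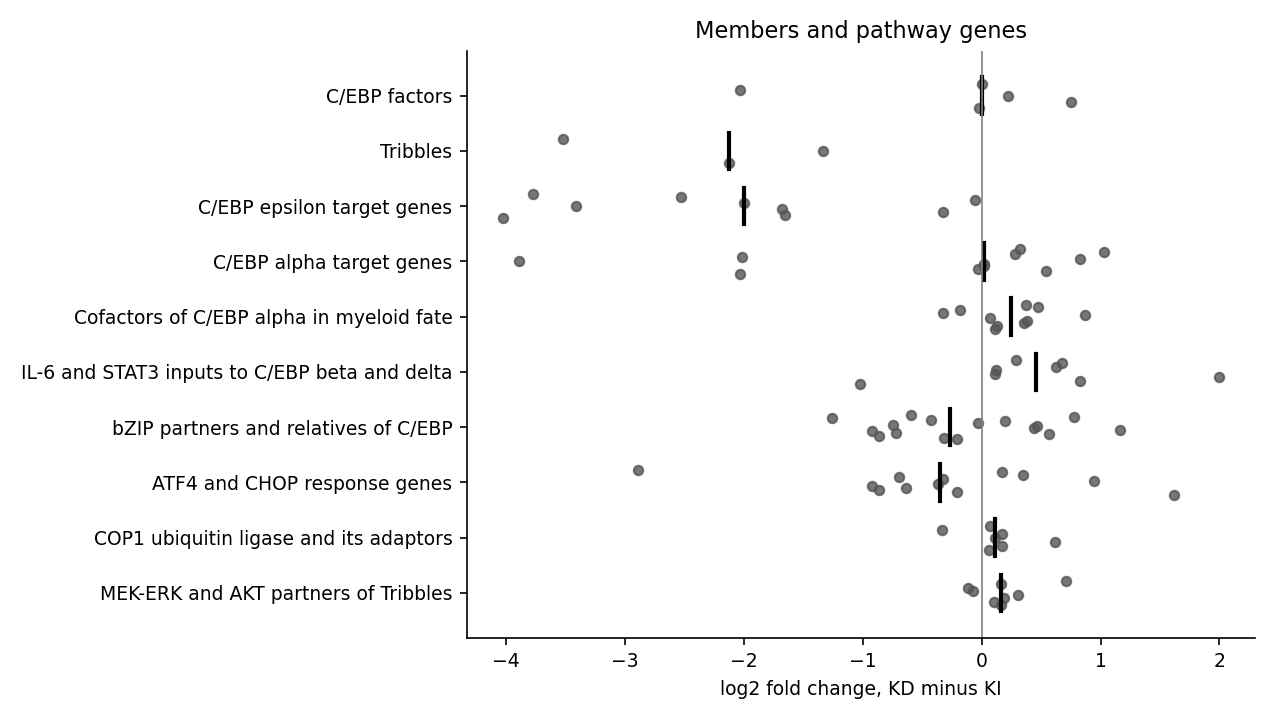
Fitted log2 fold change, KD minus KI, of each tested gene (points) in the C/EBP and Tribbles genes and in 8 pathway lists, with list medians as black bars. The median lies at -2.00 for C/EBP epsilon targets and between -0.35 and 0.46 for the other 7 pathway lists.

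For each member the 3 genes with the most similar profile were taken from genes averaging at least 5 CPM, by the Euclidean distance between centred log2 CPM over the 4 libraries. With so few points this describes these 4 libraries only. Cebpe was nearest to Tmem40 (distance 0.372), at 7.08 and 5.10 CPM in KD and 13 and 48.8 CPM in KI, and then to Tbrg1 and Slc27a4. Cebpb was nearest to the lysosomal membrane gene Lamp1 (0.0511), at 533 and 667 CPM in KD and 328 and 380 CPM in KI, then to Atp13a2 and Hyou1. Nearest to Cebpa was Alas1, the first enzyme of haem synthesis outside red cells (0.0464), at 98.4 and 177 CPM in KD and 85.6 and 186 CPM in KI, followed by Mrps26 and Bcl7c. Trib1 was nearest to Xk, a red cell membrane gene (0.180), at 5.87 and 2.42 CPM in KD and 19.2 and 15.4 CPM in KI, then to Gabbr1 and Camk2b. Nearest to Trib3 was Flt1 (0.440), and nearest to Trib2 was Srgap3 (0.303), which like Trib2 stood high in KI replicate 1 alone, at 21.6 CPM against 3.80 CPM in KI replicate 2 and 5.38 and 5.70 CPM in KD. Cebpd lay nearest to Cmpk1 (0.0138) and Cebpg to Camkk1 (0.0406).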

How the data were processed

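RNA came from TruSeq Stranded mRNA libraries, 4 in all, per the labels' protocols. The authors deposited raw counts per Ensembl gene, and the submitters' processing notes name TopHat2 2.0.10, SAMtools, HTSeq, DESeq and the build GRCm38. The strand setting is not given in the sources used here. Xist had 9795 counts and its antisense partner Tsix 10 in KD replicate 2, so counts at that locus follow the sense strand, and ambiguous reads were 0.396% to 0.620% of those in genes. Entries naming no gene held 93.2% to 97.9% of each total and were left out. Of uniquely aligned reads, 88.3% lay in no gene in KI replicate 1, against 63.2% to 68.3% in the other libraries. The 1616 columns of the chromatin tables name no library and are not used here. Symbols were matched for 40254 of 41214 genes.

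Counts were analysed in R 4.3.3 with edgeR 4.0.16: filterByExpr kept 13822 genes, TMM set the scaling, and a quasi-likelihood model of genotype alone (glmQLFit, glmQLFTest) gave p-values, adjusted by Benjamini-Hochberg and called at 0.05. The fit was repeated with scaling by RLE, by upper quartile and by library size alone, without 3 large predicted loci, without the filter and with a stricter one (5 CPM in 2 libraries). Other repeats used limma-voom (limma 3.58.1), DESeq2 1.42.0, the replicate number as a block, and 1 library fewer. In single libraries 3 counts correspond to 0.251 to 0.655 CPM before TMM.

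Named genes are the 8 members, Gfi1, the 3 genes of lowest p in each pathway list and the 3 nearest profiles per member (prior count 3). Members and lists were chosen with earlier results of these data known.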

Additional observations from a re-analysis of the deposited data

How the results depend on the processing

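Over all genes edgeR called 0, and 0 again with RLE, upper quartile or library size only scaling, without the large predicted loci, with at least 5 CPM in 2 libraries and with limma-voom. It called 169 with no low-count filter and 7 with the replicate number as a block. DESeq2 called 142. Leaving out each library gave 14 to 4130 calls and 0 to 3 of the 8 members, with other gene sets tested and the spread taken from the genotype that still had 2 libraries. Without KI replicate 2, the 4130 calls were among 16755 genes (3846 of them lower in KD, 23.0%) and the 3 members were Trib1, Trib2 and Trib3. Without KI replicate 1 there were 316 calls among 14164 genes (133 lower, 0.939%) and the 1 member was Cebpe. Cebpb, Cebpd, Cebpe, Trib1 and Trib3 kept their sign in every alternative that tested them.

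Cebpa and Cebpg, fitted at -0.02 and -0.00031, changed sign. Cebpa lay at 0.052 with RLE, 0.44 with library size only, 0.13 without the large loci, 0.11 without the filter, 0.053 in DESeq2, 0.035 in limma-voom and -0.49 to 0.74 when libraries were left out. Cebpg lay at 0.071, 0.40, 0.17, 0.23, 0.071 and 0.020 in the same order and at -0.092 to 0.34 when libraries were left out, being positive without KI replicate 1 (0.34) and KD replicate 1 (0.20). Cebpa was positive without KI replicate 2 (0.74) and KD replicate 1 (0.41). Trib2 ranged from -2.14 to 0.92 when libraries were left out, and lay at 0.92 without KI replicate 1. The cause was not tested. The median of all genes was -0.06 in the main scaling and 0.37 with library size only, 0.105 without the large loci and -0.76 without the filter. It was -0.298 without KD replicate 2. List medians were taken in the main scaling alone, and the shift with library size only is larger than the medians of -0.26 and -0.35 of the zipper and ATF4 lists.

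The replicate numbers are not stated to pair libraries. Same-numbered libraries deviated together across genes (Pearson r = 0.249 over 13822 genes), and Xist and the Y chromosome genes follow the number. With the number as a block edgeR called 7 genes, all lower in KD, and 0 of the 8 members. Cebpa lay at 0.024 ± 0.23 (SE, against 0.50 in the main fit) and Cebpg at 0.0099 ± 0.25 (against 0.29). The block cannot change the differences of the 3 ratios to Cebpa (-1.80, 0.72 and -2.10). Averaging the same-numbered differences always gives the difference of the means, so the ratios are not tested by it.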
